A study of Mus musculus with 16 samples.

Results

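The 10 genes described here encode MHC class I molecules and the machinery that loads them with peptide: the heavy chains H2-K1, H2-D1, H2-Q4, H2-Q6, H2-Q7, H2-T22, and H2-T23, the light chain B2m, and the peptide transporter subunits Tap1 and Tap2. They were chosen by name, 10 of the 32285 genes in the deposited tables, and were followed through 32 libraries of CD8+ T cells and through CD45+ cells (leukocytes) of rejecting kidney and naive spleen. The assay was 3′ scRNA-seq in droplets, which counts mRNA molecules of single cells by unique molecular identifiers (UMIs), and levels are UMIs per 1000000 UMIs of a library (CPM). The CD8+ T cells came from DBA/2J kidneys that B6 recipients accepted and from spleens of such recipients, at 1 week (3 libraries per tissue), 3 weeks (5 libraries per tissue), and 24 weeks (3 libraries per tissue) after transplantation. They also came from B6 kidneys rejected by DBA/2J recipients at 1 week (2 libraries), from spleens of such recipients (3 libraries), and from spleens of naive mice (5 libraries). Recipients were male and lost both of their own kidneys, so life depended on the graft, and viable CD45+ cells were sorted from tissue. Ages are not given in the sources used here. The labels give every sample, rejecting ones included, as C57BL/6J and wild type (WT), whereas the study's text describes DBA/2J recipients for the rejecting pair. Strain, graft outcome, and how well reads of DBA/2J alleles map to the reference therefore cannot be told apart there. Leukocytes of a graft can also be of either strain, and the CD8+ T cells were those that the authors had annotated from clusters.

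MHC class I molecules display peptides from inside the cell at its surface, where CD8+ T cells inspect them, and in transplantation they are also major targets of rejection. A heavy chain folds with beta-2 microglobulin (B2m) in the endoplasmic reticulum, and the TAP1-TAP2 transporter carries in the peptides that complete the molecule. H2-K1 and H2-D1 are the classical, highly polymorphic heavy chains, H2-Q4, H2-Q6, H2-Q7, H2-T22, and H2-T23 are nonclassical ones, and interferons and the transactivator Nlrc5 are known to raise many of these genes in lymphocytes. H2-T23 encodes Qa-1, which presents a leader peptide of other class I molecules to inhibitory receptors on natural killer and CD8+ T cells. H2-Q6 and H2-Q7 encode Qa-2 molecules, and H2-T22 is a ligand for some gamma-delta T cells.

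In GRCm38, 9 of the 10 genes lie in the MHC region of chromosome 17 and B2m lies on chromosome 2. H2-K1 spans chr17:33996017-34000347 and H2-D1 spans chr17:35262730-35267499. The Q genes follow H2-D1, with H2-Q4 at chr17:35379617-35385290, H2-Q6 at chr17:35424850-35430055, and H2-Q7 at chr17:35439155-35443773. H2-T23 at chr17:36029773-36032855 and H2-T22 at chr17:36037128-36042747 are neighbours on the minus strand, as are Tap1 at chr17:34187553-34197225 and Tap2 at chr17:34203527-34216321 on the plus strand. B2m spans chr2:122147686-122153083. Paralogs can share reads: of the 90-base windows in the last 500 bases of each gene's transcripts, 26.9% for H2-Q6 also occurred in other genes, among them H2-Q7, H2-Q10, H2-D1, and H2-K1, and 26.4% for H2-T22 occurred in H2-T10. The share was 13.4% for H2-T23, 9.49% for H2-Q4, 4.73% for H2-Q7, 0.151% for H2-K1, and 0 for H2-D1, B2m, Tap1, and Tap2, so levels of H2-Q6 and H2-T22 are the least certain.

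The promoters are shown because class I genes are switched by a conserved upstream block. The members below differ in which of its motifs were matched in the searched bases. The 250 bases before the RefSeq start of 9 members (Tap2 was not matched) were searched on both strands for a kappaB-like element (GGGGA followed directly by TTCCC), for 2 interferon-response forms (TTTCACTT, and GAAA, any 2 bases, and GAAA, which overlap in H2-T22), for a CRE-like X2 box (TGATGAC), and for a CCAAT box (CCAATCA). Of 27025 promoters of this length, 0.0814% held the first, 1.44% and 3.04% the interferon-response forms, 2.77% the X2-like box, and 7.65% the CCAAT box. Capitals mark the matches, and each stretch is printed 5′ to 3′ on the gene's own strand, from RefSeq on GRCm38.p6.
H2-K1 (chr17:34000422-34000466, minus strand): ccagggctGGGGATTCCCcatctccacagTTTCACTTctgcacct
H2-D1 (chr17:35262915-35263055, plus strand): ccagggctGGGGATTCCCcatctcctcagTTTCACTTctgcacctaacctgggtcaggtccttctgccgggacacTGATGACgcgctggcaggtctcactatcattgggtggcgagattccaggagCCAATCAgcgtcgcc
H2-Q4 (chr17:35379456-35379576, plus strand): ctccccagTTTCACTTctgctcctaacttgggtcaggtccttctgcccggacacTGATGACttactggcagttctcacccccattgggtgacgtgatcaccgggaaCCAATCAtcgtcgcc
H2-Q6 (chr17:35424669-35424809, plus strand): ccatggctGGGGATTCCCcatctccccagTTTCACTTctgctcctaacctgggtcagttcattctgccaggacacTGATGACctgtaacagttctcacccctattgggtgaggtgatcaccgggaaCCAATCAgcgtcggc
H2-Q7 (chr17:35439014-35439153, plus strand): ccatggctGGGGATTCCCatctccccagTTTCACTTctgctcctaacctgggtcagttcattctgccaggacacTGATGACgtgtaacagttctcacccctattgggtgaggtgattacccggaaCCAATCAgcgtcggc
H2-T22 (chr17:36042818-36042941, minus strand): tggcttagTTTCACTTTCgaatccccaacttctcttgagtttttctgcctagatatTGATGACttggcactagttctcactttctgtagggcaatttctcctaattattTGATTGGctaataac
H2-T23 (chr17:36032739-36032833, minus strand): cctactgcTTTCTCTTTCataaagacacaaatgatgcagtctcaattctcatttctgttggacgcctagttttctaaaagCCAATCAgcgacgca
B2m (chr2:122147540-122147565, plus strand): aagaacatGAAACTGAAAatgggaaa
Tap1 (chr17:34187326-34187348, plus strand): tcggctttCCAATCAgcggctgc

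H2-D1, H2-Q6, and H2-Q7 held all of the kappaB-like element, TTTCACTT, the X2-like box, and the CCAAT box, in that order toward the start. H2-K1 held the first pair only, at 111 and 90 bases before its start, and H2-Q4 held the last 3 without the kappaB-like element. H2-T22 had an interferon-response form, the X2-like box, and a CCAAT box on the opposite strand. H2-T23 had the spaced interferon-response form on the opposite strand, 124 bases before its start, and a CCAAT box, B2m had only the spaced form, and Tap1 had only a CCAAT box. A match of letters is a description of the reference sequence and not of a factor's binding, and these are B6 sequences. The search took exact letters up to the annotated start, so a motif without a match may occur in another form or past that start.

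Libraries held between 153266 and 25960721 UMIs, and no member was at 0 in any library, the fewest being 7 UMIs of a gene in the library of 56 cells from rejecting spleen. Each library tag was taken as 1 mouse, since the tags of accepted mice match the replicate numbers of the study's methods by week (no number is given there for naive mice, nor one of its own for rejecting mice), and no pair of libraries shared more than 21 cell barcodes. The libraries did not hold CD8+ T cells alone. UMIs of Cd8a or Cd8b1 occurred in 83.5% to 90.1% of cells of accepted kidney at 1 week and 96.3% to 97.0% at 3 weeks, but in 41.9% to 49.2% and 44.0% to 51.8% of cells of spleen at these times. At 24 weeks the order was the other way round, with 46.2% to 49.2% in libraries labelled kidney and 93.4% to 95.3% in libraries labelled spleen. Of 12 kidney parenchyma genes, 9 were at 0 in all 24-week libraries labelled kidney, as in spleen of 1 and 3 weeks, and 4 were at 0 in those labelled spleen. The labels of the 24-week matrices may therefore be exchanged between kidney and spleen, which these files do not settle. The libraries are described by label, and if the labels are exchanged, each comparison of 24 with 3 weeks within a label sets 1 organ against the other. Cells with a marker of division made up 41.4% to 67.2% of accepted kidney cells at 1 week against 14.1% to 18.6% at 3 weeks, and 29.6% and 74.8% of cells in the rejecting kidney libraries. Dates of preparation are not given in the sources used here, so week and preparation cannot be told apart in a single tissue.

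The members differed in level over a wide range. B2m, H2-K1, and H2-D1 were the most abundant, with group means of 1234 to 2635 CPM for B2m, 1574 to 2690 CPM for H2-K1, and 862 to 1935 CPM for H2-D1 over the accepted and naive groups, and H2-Q7 followed at 609 to 996 CPM. The other members lay between 39.9 and 290.1 CPM. UMIs were counted at transcript 3′ ends, so these levels count molecules and were not divided by length. For H2-K1, group means ran from 1574 ± 320 CPM (SD, n = 3) in accepted kidney at 1 week through 1737 ± 175 CPM (n = 5) in spleen at 3 weeks, 1769 ± 87.3 CPM (n = 5) in naive spleen, 1831 ± 97.4 CPM (n = 3) in the 24-week kidney label, and 1878 ± 62.7 CPM (n = 3) in spleen at 1 week to 2632 ± 6.51 CPM (n = 3) in the 24-week spleen label and 2690 ± 178 CPM (n = 5) in kidney at 3 weeks. These first 5 groups overlapped in their values, as did the last pair, and the libraries of the last pair lay above all others.

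**Figure D1:**
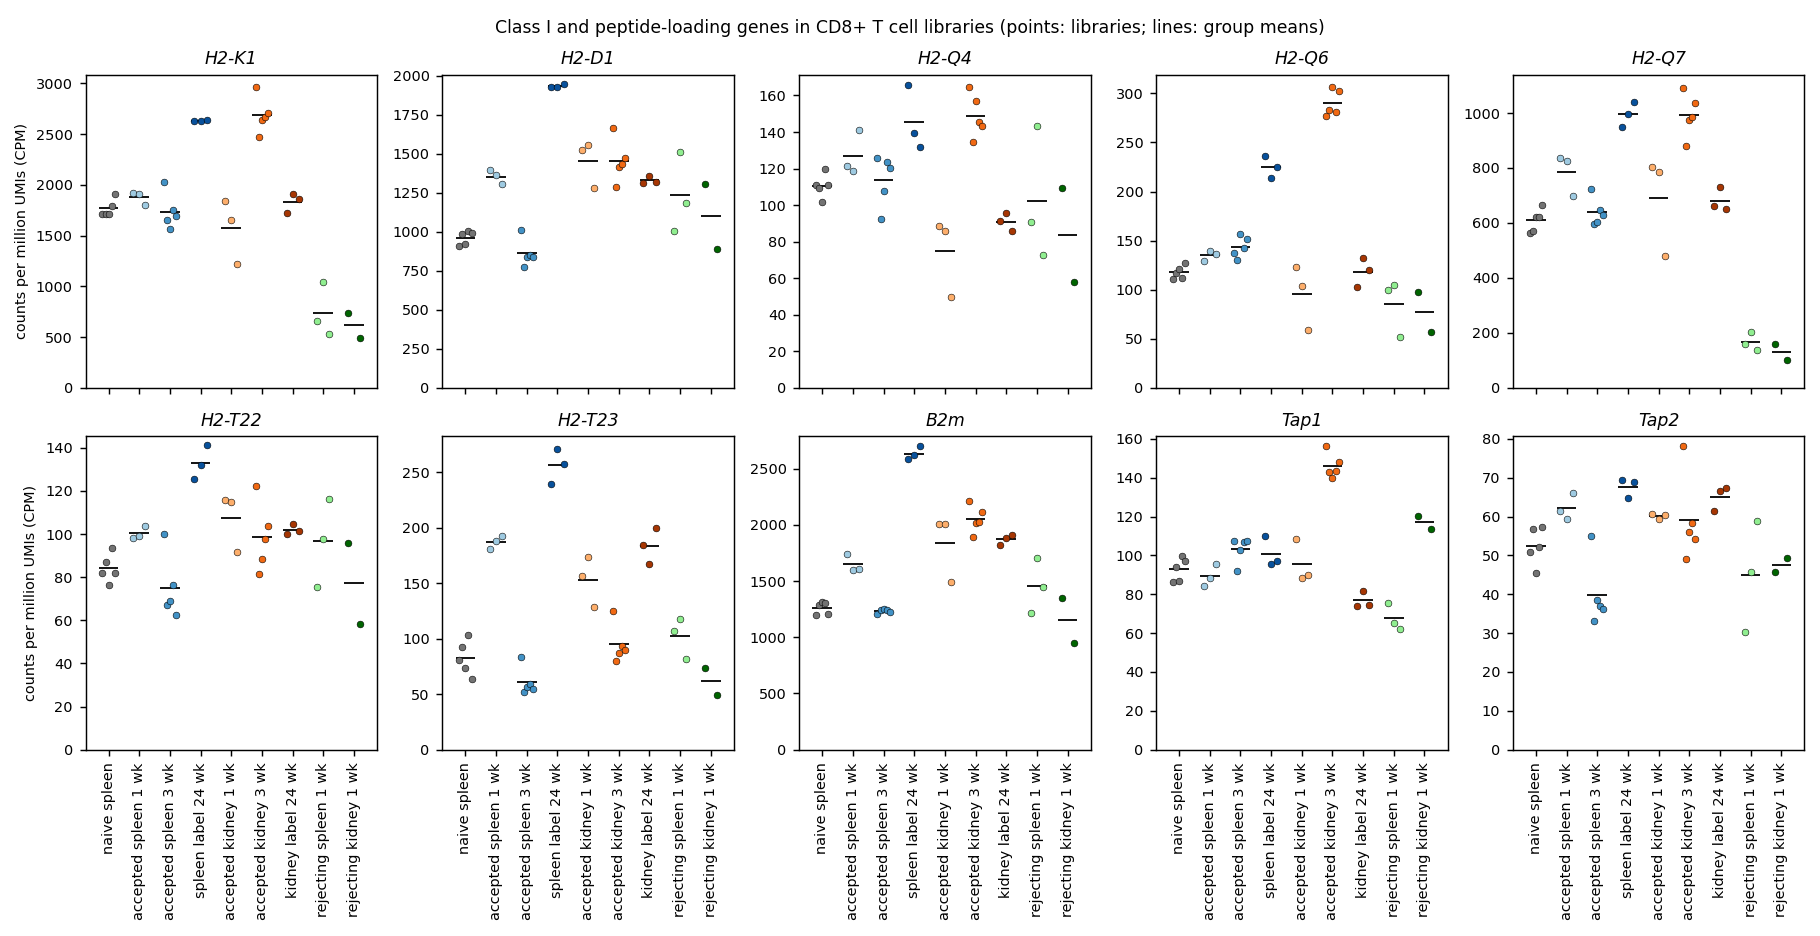
Each panel plots the level of a member in CPM (linear axis from 0) for every CD8+ T cell library, with 9 groups along the horizontal axis, points for libraries, and lines for group means. H2-Q6 stands highest in accepted kidney at 3 weeks (277 to 306 CPM), H2-K1 and H2-Q7 are lowest in the rejecting libraries, and H2-T23 is low in all libraries of 3 weeks and in naive spleen (52.1 to 125 CPM).

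From 1 to 3 weeks in the accepted kidney, H2-K1, 3 Q-region heavy chains, and Tap1 rose in CD8+ T cells, H2-T23 fell, and H2-D1, H2-T22, B2m, and Tap2 did not pass the test. H2-Q6 had the largest change, 3.05-fold, followed by H2-Q4 (2.00-fold), H2-K1 (1.71-fold), Tap1 (1.53-fold), and H2-Q7 (1.44-fold). This comparison asks how the graft's CD8+ T cells change while the graft is being accepted. Of all 11693 genes tested 53.5% rose and 21.5% fell, and the median change of all genes was 0.41 on the log2 scale, so 5 of 10 members higher is near the background share, and the position of each gene relative to that median is given as well.

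H2-Q6 was at 123, 104, and 59.3 CPM in the 3 kidney libraries of 1 week and at 277, 283, 306, 281, and 303 CPM in the 5 of 3 weeks. The groups did not overlap, and the log2 fold change was 1.61 ± 0.17 (SE; edgeR's quasi-likelihood test, adjusted p = 8.28e-07), which is 1.20 above the median of all genes. H2-K1 was at 1844, 1658, and 1221 CPM at 1 week and at 2964, 2472, 2641, 2665, and 2707 CPM at 3 weeks. Again every library of 3 weeks lay above every library of 1 week, with a log2 fold change of 0.77 ± 0.11 (adjusted p = 2.22e-05), 0.36 above the median. H2-Q4 went from 88.7, 86.1, and 49.5 CPM to 164, 134, 157, 146, and 143 CPM (1.00 ± 0.15, adjusted p = 2.93e-05). Tap1 went from 108, 88.3, and 89.7 CPM to 157, 143, 140, 144, and 148 CPM (0.62 ± 0.08, adjusted p = 1.05e-05), and it too did not overlap. H2-Q7, at 805, 784, and 479 CPM and then at 1090, 881, 973, 985, and 1037 CPM, changed by 0.53 ± 0.14 (adjusted p = 0.00297), only 0.12 above the median of all genes. The third library of 1 week was the lowest for all 7 heavy chains and B2m.

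H2-T23 went the other way, from 156, 174, and 129 CPM at 1 week to 125, 79.7, 87.0, 93.4, and 90.1 CPM at 3 weeks. It fell by 0.68 ± 0.13 on the log2 scale (adjusted p = 0.000217), 1.09 under the median of all genes. H2-D1, the other classical heavy chain, stayed at 1526, 1557, and 1282 CPM and then 1665, 1286, 1414, 1433, and 1475 CPM, with overlapping groups and a log2 fold change of 0.00 ± 0.09 (adjusted p = 0.999). B2m, at 2008, 2006, and 1492 CPM and then 2214, 1893, 2019, 2028, and 2115 CPM, gave 0.16 ± 0.10 (adjusted p = 0.148). H2-T22 (-0.12 ± 0.12) and Tap2 (-0.02 ± 0.12) overlapped as well. The same 5 genes rose and H2-T23 fell whichever library was left out. Markers of other cells also differed between these weeks without overlap, the 8 macrophage or monocyte markers summing to 344 to 436 CPM at 1 week and 142 to 254 CPM at 3 weeks, with Cd4 at 16.8 to 31.9 and 4.64 to 8.65 CPM. The changes of the 6 genes passed again in cells with a CD8 UMI and no UMI of other cells, at 1.61 for H2-Q6, 1.03 for H2-Q4, 0.79 for H2-K1, 0.66 for Tap1, 0.52 for H2-Q7, and -0.70 for H2-T23. The genes of other cells in this filter were Cd4, Cd79a, Ms4a1, Lyz2, and C1qa, here and below. In cells without a dividing marker the values were 1.44 for H2-Q6, 0.82 for H2-Q4, 0.60 for H2-K1 and Tap1, 0.39 for H2-Q7, and -0.97 for H2-T23, all past the threshold. Scaling by TMM factors or by DESeq2 took H2-Q7 from the higher genes and gave 4 higher and 4 lower members, since H2-D1 (-0.38 with TMM factors), H2-T22 (-0.50), and Tap2 (-0.41) then passed as lower.

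The share of cells with a UMI was compared after thinning every cell to 1000 UMIs, so that depth does not set it. A UMI of H2-Q6 was found in 10.9% of cells (median; 6.38% to 12.8%) in the 3 libraries of 1 week and in 25.2% (23.3% to 26.2%) in the 5 of 3 weeks. For H2-K1 the shares were 69.7% to 82.8% and 91.0% to 94.1%, for H2-Q7 38.5% to 55.8% and 57.1% to 66.1%, and for Tap1 7.91% to 10.3% and 13.5% to 15.3%. H2-T23 was found in 13.3% to 16.6% of cells and then in 7.70% to 11.7%. None of these overlapped between the weeks, nor did those of H2-Q4 (5.08% to 9.66% and 12.4% to 14.7%), and the exact two-sided permutation test gave p = 0.0357 for each of the 6 genes, the smallest value that 3 against 5 libraries allow. These p-values are not adjusted for the 10 genes tested, and none of the 6 would stay under 0.05 with such an adjustment, so the shares are a description. H2-D1 (p = 0.75), B2m (p = 0.464), H2-T22 (p = 0.179), and Tap2 (p = 0.464) gave larger values in the same exact test, and their shares overlapped.

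In the spleens of the recipients the change was different: 6 members fell from 1 to 3 weeks and only Tap1 rose. The background was 21.1% of 10416 genes lower and 35.1% higher, with a median of 0.15 on the log2 scale. H2-T23 was at 181, 188, and 192 CPM at 1 week and at 83.7, 52.1, 56.4, 59.4, and 54.3 CPM at 3 weeks, and fell by 1.61 ± 0.11 (adjusted p = 3.49e-08). H2-D1 was at 1393, 1363, and 1306 CPM and then at 1010, 775, 836, 849, and 840 CPM, and fell by 0.65 ± 0.08 (adjusted p = 4.47e-06). In neither gene did the groups overlap. B2m went from 1740, 1597, and 1611 CPM to 1205, 1241, 1255, 1241, and 1228 CPM, and fell by 0.42 ± 0.06 (adjusted p = 3.19e-05). Tap2 fell by 0.64 ± 0.12, H2-T22 by 0.42 ± 0.11, and H2-Q7 by 0.30 ± 0.08. H2-K1 (-0.11 ± 0.08, adjusted p = 0.235), H2-Q4 (-0.16), and H2-Q6 (0.09) did not pass the test. Tap1, with 84.4, 88.2, and 95.5 CPM and then 108, 92.1, 103, 107, and 107 CPM, gave 0.21 ± 0.08 (adjusted p = 0.0294), a call lost on leaving out 4 of the 8 libraries in turn and with TMM factors or DESeq2. The 4 B cell markers summed to 464 to 929 CPM in spleen of 1 week and to 109 to 276 CPM at 3 weeks, none of them at 0 in either, and their part in the result was not tested. In cells with a CD8 UMI and no UMI of other cells 6 members were again lower and 2 were higher.

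The difference between the kidney change and the spleen change was tested as an interaction. Of the 10 members 9 changed more positively in kidney than in spleen, where 29.2% of 12319 genes did so and 10.9% went the other way, and all 10 members lay above the median difference of all genes, 0.24. The differences were 1.52 ± 0.20 for H2-Q6 (adjusted p = 4.27e-06), 1.16 ± 0.20 for H2-Q4 (adjusted p = 8.27e-05), 0.93 ± 0.19 for H2-T23 (adjusted p = 0.000743), 0.89 ± 0.14 for H2-K1 (adjusted p = 5.7e-05), and 0.83 ± 0.17 for H2-Q7 (adjusted p = 0.000679). H2-D1 (0.65), Tap2 (0.62), B2m (0.58), and Tap1 (0.41) passed too, and H2-T22 did not (0.30 ± 0.18, adjusted p = 0.192). For H2-T23 the difference is between a smaller fall in kidney and a larger fall in spleen. With TMM factors or DESeq2, 7 members passed, and in cells with a CD8 UMI and no UMI of other cells 8 did, Tap1 being lost there (0.30, adjusted p = 0.12).

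**Figure D2:**
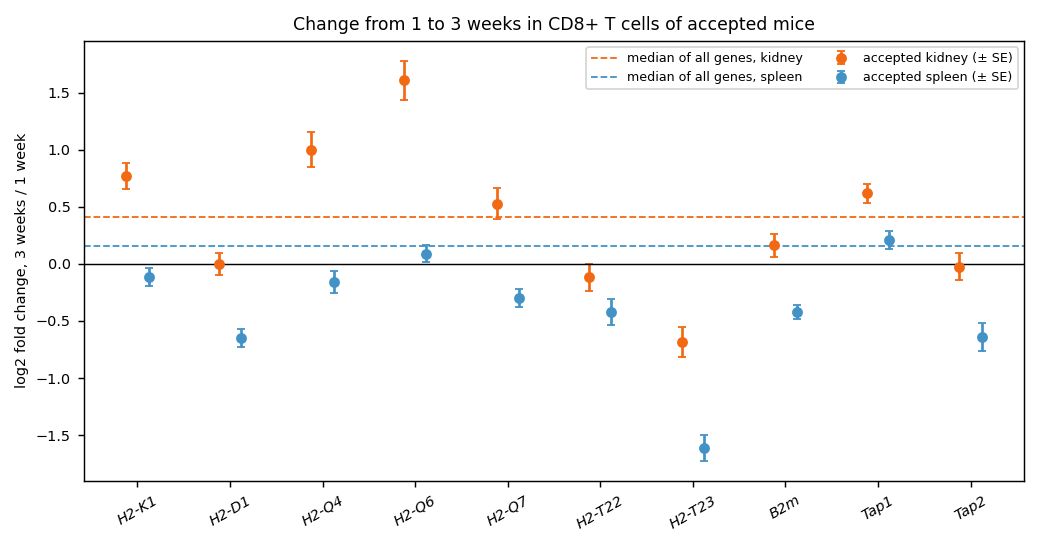
For each member the log2 fold change of 3 weeks over 1 week (vertical axis, ± SE) is plotted for accepted kidney and for accepted spleen, and dashed lines mark the median of all genes in each tissue (0.41 and 0.15). In all 10 members the kidney point lies above the spleen point, with the widest gap in H2-Q6 (1.61 against 0.09).

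At 1 week 1 member passed the test between the kidney and spleen of accepted recipients. H2-Q4 was lower in kidney, at 88.7, 86.1, and 49.5 CPM against 121, 119, and 141 CPM in spleen (-0.77 ± 0.19, adjusted p = 0.00528), and no other member passed, where 24.1% of 11707 genes were lower and 27.3% higher. H2-Q6 (-0.50 ± 0.21, adjusted p = 0.0605) and H2-T23 (-0.29 ± 0.11, adjusted p = 0.0505) missed the threshold. At 3 weeks all 10 members were higher in kidney than in spleen, against 47.3% of 10944 genes (20.2% were lower) and a median of 0.22, and all 10 were above that median. H2-Q6 was at 137, 130, 156, 142, and 152 CPM in spleen, and its level in kidney was 2.02-fold higher (1.01 ± 0.06, adjusted p = 5.8e-11). H2-D1 was 1.69-fold higher in kidney, B2m 1.66-fold, H2-K1 1.55-fold, H2-Q7 1.55-fold, and Tap1 1.42-fold. The kidney libraries did not overlap the spleen libraries in H2-K1, H2-D1, H2-Q4, H2-Q6, H2-Q7, B2m, and Tap1, and they did in H2-T22, H2-T23, and Tap2. The share of all genes without overlap is not given for this comparison, so this split describes the members only. The 5 NK markers summed to 191 to 541 CPM in kidney and 67.8 to 116 CPM in spleen, and the 4 B cell markers to 11.5 to 26.4 and 109 to 276 CPM. The part of NK markers, which the check on CD8 UMIs does not leave out, was not tested. All 10 stayed higher in cells with a CD8 UMI and no UMI of other cells and on leaving out any library. Other scalings lost some calls: with TMM factors 8 were higher, without H2-Q4 (0.18, adjusted p = 0.0516) and H2-T22 (0.19, adjusted p = 0.163), with DESeq2 9, without H2-T22, and on leaving out genes of mitochondria, ribosomal proteins, immunoglobulins, and T cell receptors 7, without H2-Q4 (0.077), H2-T22 (0.083), and Tap2 (0.25).

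Naive spleen gave a reference outside of transplantation, and 3 comparisons with it share those 5 libraries. H2-Q6 was at 111, 117, 121, 112, and 127 CPM in naive spleen, so that it was 2.47-fold higher in kidney at 3 weeks (1.30 ± 0.06, adjusted p = 5.58e-14). In that comparison 8 members were higher, where 49.8% of 10838 genes were and 20.1% were lower, and H2-T23 (0.20 ± 0.12, adjusted p = 0.146) and Tap2 (0.18 ± 0.11, adjusted p = 0.144) did not pass. The call for H2-T22 (0.23 ± 0.09, adjusted p = 0.0306) was lost in 7 of 16 alternatives, among them leaving out kidney replicate 1 or 5 or naive replicate 1, 3, or 5 (0.14 to 0.22), and its direction turned in 2, with TMM factors (-0.02) and without the 4 gene classes named above (-0.14). NK markers were at 191 to 541 CPM in kidney against 62.9 to 82.9 CPM in naive spleen, and their part was not tested. The same 8 members were higher in cells with a CD8 UMI and no UMI of other cells. Spleen of 3 weeks stayed closer to naive spleen. There H2-Q6 was higher (0.29 ± 0.07, adjusted p = 0.00221) where 14.8% of 9848 genes were, and H2-T23 (-0.44 ± 0.12, adjusted p = 0.00791) and Tap2 (-0.39 ± 0.11, adjusted p = 0.0104) were lower where 7.66% were. Here too the makeup differed, with a CD8 UMI in 44.0% to 51.8% of cells against 95.0% to 97.6% in naive spleen, Cd4 at 60.2 to 96.1 against 2.88 to 7.39 CPM, and B cell markers at 109 to 276 against 27.0 to 55.7 CPM. These 3 calls held in cells with a CD8 UMI and no UMI of other cells (H2-Q6 0.47, H2-T23 -0.45, Tap2 -0.46), and H2-D1 was lower as well (-0.25). Spleen of 1 week had 8 members higher than naive spleen, against 25.0% of 10348 genes (35.2% were lower). A CD8 UMI occurred there in 41.9% to 49.2% of cells, and the 4 B cell markers summed to 464 to 929 CPM, against the naive values just given. The change of H2-T23 was the largest among them, from 80.6, 92.4, 74.0, 104, and 63.6 CPM in naive spleen to 181, 188, and 192 CPM (1.17 ± 0.11, adjusted p = 1.21e-07). H2-D1 followed (0.49 ± 0.06), and H2-K1 (0.09 ± 0.06) and Tap1 (-0.05 ± 0.07) did not pass. In cells with a CD8 UMI and no UMI of other cells, 4 of the 8 passed, H2-D1 (0.36), H2-Q7 (0.43), H2-T23 (0.96), and B2m (0.36), the calls of H2-Q4, H2-Q6, H2-T22, and Tap2 were lost, and Tap1 was lower (-0.28).

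The libraries labelled 24-week spleen lay above all other libraries in H2-D1, H2-T22, H2-T23, and B2m. In H2-Q7 they (951 to 1039 CPM) overlapped kidney of 3 weeks (881 to 1090 CPM). In Tap2 (64.8 to 69.4 CPM) they overlapped the 24-week kidney label (61.5 to 67.4 CPM) and kidney of 3 weeks, whose highest library was at 78.3 CPM. Against kidney of 3 weeks, the libraries labelled 24-week kidney were lower in 5 members, where 56.9% of 11617 genes were lower, and higher in H2-T23, where 16.6% were higher. H2-Q6 was at 103, 132, and 120 CPM there (-1.29 ± 0.08, adjusted p = 2.42e-09), Tap1 at 74.2, 81.7, and 74.6 CPM (-0.93 ± 0.07, adjusted p = 1.46e-08), and H2-T23 at 185, 168, and 199 CPM (0.95 ± 0.12, adjusted p = 2.77e-06). None of these groups overlapped, and the calls of H2-Q6, Tap1, and H2-T23 held in all 14 alternatives, cells with a CD8 UMI among them. The 4 B cell markers summed to 78.7 to 211 CPM in the 24-week kidney label against 11.5 to 26.4 CPM in kidney of 3 weeks. The 5 NK markers summed to 64.0 to 116 against 191 to 541 CPM, and Cd4 was at 61.3 to 67.7 against 4.64 to 8.65 CPM. The part of NK markers in these changes was not tested. H2-D1 (-0.13) and B2m (-0.13) did not pass, and they turned to 0.29 each with TMM factors, past the threshold. With TMM factors or DESeq2, 5 members were higher and 3 lower in this comparison. Against spleen of 3 weeks, the libraries labelled 24-week spleen were higher in 9 members, where 29.8% of 10415 genes were, and 0 were lower by edgeR (0 at an unadjusted p under 0.05 and 0 by DESeq2), where 30.8% of genes were. H2-T23 was at 240, 271, and 258 CPM (2.06 ± 0.11, adjusted p = 1.96e-12), 4.18-fold the level in spleen of 3 weeks. H2-D1 was at 1927, 1928, and 1949 CPM (1.17 ± 0.08) and B2m at 2583, 2621, and 2701 CPM (1.09 ± 0.06). Tap1 gave -0.03 ± 0.09. The 5 NK markers summed to 401 to 634 CPM in the 24-week spleen label against 67.8 to 116 CPM in spleen of 3 weeks, and the 4 B cell markers to 13.9 to 43.1 against 109 to 276 CPM, none of either list at 0 in all libraries of a group. In cells with a CD8 UMI and no UMI of other cells, which does not leave out NK markers, the same 9 members were higher, and the part of NK markers was not tested. Between the labels at 24 weeks, the kidney-labelled libraries were lower in 9 members, where 36.7% of 10381 genes were lower and 16.4% higher. The exception was Tap2 (-0.05 ± 0.09). With TMM factors or DESeq2, 7 members were lower. H2-K1, H2-D1, H2-Q4, H2-Q6, and H2-Q7 stayed lower in all 13 alternatives, cells with a CD8 UMI among them. The 5 NK markers summed to 64.0 to 116 CPM in the kidney label against 401 to 634 CPM, and the 4 B cell markers to 78.7 to 211 against 13.9 to 43.1 CPM. Cd4 was at 61.3 to 67.7 against 6.76 to 9.73 CPM, and the part of NK markers was not tested.

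Among the accepted and naive libraries some values separated by week in both tissues, a grouping chosen after the values were seen. H2-T23 lay between 52.1 and 125 CPM in the 15 libraries of 3 weeks and naive spleen and between 129 and 271 CPM in the 12 accepted libraries of 1 and 24 weeks, without overlap. The 5 rejecting libraries, also of 1 week, were left out of this grouping and lay at 49.3 to 117 CPM, in or below the low range. Of 5165 genes that averaged 20 CPM or more over these libraries, 0.755% were higher at 1 and 24 weeks without overlap and 7.63% were lower, and H2-T23 was the only member in either class. H2-K1 UMIs per H2-D1 UMI separated the same libraries, at 1.74 to 2.13 against 0.953 to 1.41. Within the kidney this ratio was 1.08 ± 0.13 (SD, n = 3) at 1 week and 1.85 ± 0.05 (n = 5) at 3 weeks, and within the spleen 1.39 ± 0.01 (n = 3) and 2.02 ± 0.09 (n = 5). It was 1.38 ± 0.06 and 1.36 ± 0.01 (n = 3 each) in the 24-week libraries labelled kidney and spleen. H2-K1 and H2-D1 did not move in parallel over the weeks, and week and preparation cannot be told apart for this shift, which both tissues share.

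H2-K1 and H2-D1 together per B2m UMI compare heavy with light chain inside a library, free of its total. The ratio was 1.65 ± 0.04 (n = 3) in kidney at 1 week, 2.02 ± 0.05 (n = 5) at 3 weeks, and 1.69 ± 0.04 (n = 3) in the 24-week kidney label. In spleen it was 1.96 ± 0.08 (n = 3) at 1 week, 2.11 ± 0.24 (n = 5) at 3 weeks, and 1.73 ± 0.03 (n = 3) in the 24-week spleen label, and 2.17 ± 0.15 (n = 5) in naive spleen. Kidney of 1 and 3 weeks did not overlap, and the exact two-sided permutation test gave p = 0.0357, the smallest possible with 3 against 5 libraries, which became 0.131 after adjustment over 11 comparisons of this ratio. Both 24-week labels against 3 weeks gave the same exact p values, and no comparison of the 11 passed after adjustment.

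**Figure D3:**
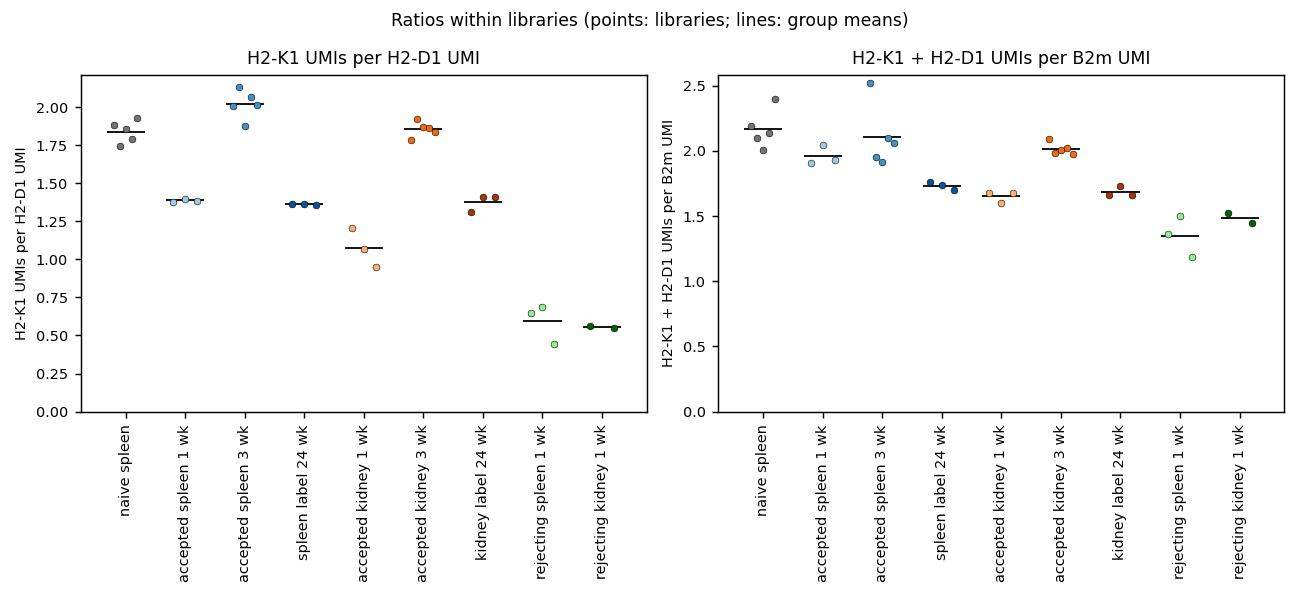
The left panel plots H2-K1 UMIs per H2-D1 UMI and the right panel H2-K1 plus H2-D1 UMIs per B2m UMI for every library (points) with group means (lines), on linear axes from 0. On the left the libraries of 3 weeks and naive spleen stand above 1.74 and the rejecting libraries between 0.445 and 0.690.

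Other genes of the class I pathway did not move as a block in the accepted kidney. Of 21 of 24 listed genes tested, 9 rose and 6 fell from 1 to 3 weeks, where 53.5% of all genes rose and 21.5% fell, with a median of 0.13 against 0.41 for all genes. Nlrc5, the transactivator of class I genes, rose by 1.52 ± 0.10 (adjusted p = 1.13e-08), from 31.4 to 42.0 CPM at 1 week to 102 to 117 CPM at 3 weeks, and more than in spleen (difference 0.85, adjusted p = 7.27e-05). Tapbp, which holds the transporter to the empty class I molecule, rose by 0.91 ± 0.08, 0.50 above the median of all genes. H2-Q10 rose by 0.39 ± 0.15, which is near that median (-0.02 relative to it). The immunoproteasome subunits Psmb9 (-0.97 ± 0.11), Psmb8 (-0.57 ± 0.07), and Psmb10 (-0.39 ± 0.08), which cut proteins into peptides, and the proteasome activator subunit Psme2 (-0.86 ± 0.08) fell. The 3 subunits of the RFX complex of MHC promoters moved in different directions: Rfxap fell by 0.53 ± 0.09, whereas Rfx5 (1.31 ± 0.15, adjusted p = 2.2e-06) and Rfxank (0.91 ± 0.14, adjusted p = 4e-05), named after their values were seen, rose. In the interaction 9 of 22 pathway genes tested were higher and 1 was lower, where 29.2% and 10.9% of all genes were, with a median of 0.26 beside 0.24 for all genes. Intron length moved with these changes: with all genes in 10 equal groups by intron length, the group of the longest introns had a median of 0.81 and that of the shortest 0.33 in kidney, and Nlrc5 has 84424 bases of intron, whereas 9 of the 10 members belong to the 3 groups of the shortest introns, whose median was 0.21. The part of intron length in the change of Nlrc5 was not tested.

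The listed interferon-response genes moved more evenly. From 1 to 3 weeks in the accepted kidney 20 of 25 rose and 3 fell, with a median of 0.81, where 53.5% of all genes rose and 21.5% fell, and in spleen 5 rose and 5 fell, where 35.1% and 21.1% did. The difference between the changes passed for 19 genes as higher in kidney, and for 0 genes as lower by edgeR (1 at an unadjusted p under 0.05), where 29.2% of all genes were higher and 10.9% lower. Gbp4 and Gbp7, interferon-induced GTPases, rose by 1.24 ± 0.15 and 0.99 ± 0.10. Stat2, a transducer of type I interferon signals, rose by 1.24 ± 0.11, Socs1, an inhibitor of cytokine signalling, by 1.18 ± 0.08, and Isg15 by 0.98 ± 0.25. Ly6a fell by 0.81 ± 0.10. At 1 week 14 of the 25 had been lower in kidney than in spleen, where 24.1% of all genes were, and 0 passed as higher by edgeR (1 at an unadjusted p under 0.05) where 27.3% were. B cell markers were at 8.50 to 9.36 CPM in kidney of 1 week against 464 to 929 CPM in spleen, and a CD8 UMI occurred in 83.5% to 90.1% against 41.9% to 49.2% of cells, and their part in this difference was not tested. At 3 weeks 10 were higher and 8 lower, where 47.3% and 20.2% of all genes were. The change within kidney is thus not a higher level than in spleen across the list. Counts of this list and of the pathway list come from plain library totals and all cells of a library. The parts of scaling, dividing cells, and intron length in these counts were not tested.

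In rejecting libraries H2-K1 and H2-Q7 were far lower than in accepted libraries of 1 week, in kidney and in spleen, whereas H2-D1, H2-Q4, H2-T22, Tap1, and Tap2 passed in neither. TMM factors lowered every member. With them or with DESeq2, 9 members passed as lower in kidney and 10 in spleen. H2-D1 was among these (-1.09 in kidney and -0.58 in spleen with TMM factors). No share of all genes is given for these scalings, so such counts have no background beside them. Only the order of the members is free of the scaling. Of 12533 genes tested 10.5% were lower and 48.9% higher in rejecting kidney, with a median of 0.70, and 4 members were lower and 0 higher by edgeR (0 at an unadjusted p under 0.05 and 0 by DESeq2). H2-Q7 was at 158 and 99.9 CPM in the rejecting kidney libraries against 805, 784, and 479 CPM in accepted ones (fold 0.187; log2 -2.42 ± 0.30, adjusted p = 0.000207). H2-K1 was at 739 and 491 CPM against 1844, 1658, and 1221 CPM (fold 0.391; -1.35 ± 0.25, adjusted p = 0.00163). H2-T23 was at 74.0 and 49.3 CPM (-1.31 ± 0.23, adjusted p = 0.00125). In these 3 genes the groups did not overlap, nor did they in B2m. The rejecting kidney libraries also differed in makeup, with the 12 kidney parenchyma genes at 65.6 to 71.7 CPM in sum against 5.95 to 12.5 CPM, the 4 neutrophil markers at 6.81 to 20.2 against 0.598 to 2.20 CPM, and Cd4 at 0 against 16.8 to 31.9 CPM. In cells with a CD8 UMI and no UMI of other cells 4 members were again lower, H2-K1 (-1.38), H2-Q7 (-2.57), H2-T23 (-1.41), and B2m (-0.67). That filter does not use the kidney parenchyma genes or the neutrophil markers, and their part was not tested. B2m was at 1346 and 953 CPM (-0.67 ± 0.22, adjusted p = 0.0249), a call lost on leaving out 3 of the 5 libraries in turn. H2-D1 was at 1308 and 891 CPM against 1526, 1557, and 1282 CPM, with overlap (-0.40 ± 0.20, adjusted p = 0.119). H2-Q4 (0.16 ± 0.32) and H2-Q6 (-0.31 ± 0.34) overlapped too. Tap1 was at 120.3 and 114 CPM, above the accepted libraries (0.30 ± 0.17, adjusted p = 0.153), but its direction turned to -0.39 with TMM factors and -0.41 with DESeq2, both past the threshold.

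Rejecting spleen showed the same pair of genes, in libraries of another makeup. A CD8 UMI occurred in 100% of its cells against 41.9% to 49.2% in accepted spleen of 1 week, the 4 B cell markers summed to 65.2 to 272 against 464 to 929 CPM, the 8 macrophage or monocyte markers to 517 to 763 against 242 to 318 CPM, and the 4 neutrophil markers to 29.0 to 1037 against 44.7 to 71.1 CPM. H2-Q7 was at 159, 202, and 139 CPM against 837, 826, and 697 CPM in accepted spleen of 1 week (fold 0.203; -2.30 ± 0.17, adjusted p = 2.8e-07). H2-K1 was at 655, 1044, and 528 CPM against 1921, 1907, and 1806 CPM (fold 0.384; -1.38 ± 0.20, adjusted p = 0.000107). H2-T23 (-0.92 ± 0.16, adjusted p = 0.000327) and H2-Q6 (-0.74 ± 0.21, adjusted p = 0.00971) were lower as well, 4 members in all where 12.2% of 10573 genes were lower, and 0 members were higher by edgeR where 36.2% were (0 at an unadjusted p under 0.05 and 0 by DESeq2). With TMM factors or DESeq2, all 10 members were lower. The call of H2-Q6 was lost without the third rejecting library. In cells with a CD8 UMI and no UMI of other cells these 4 members were again lower, H2-Q7 by -2.48, H2-K1 by -1.32, H2-T23 by -0.66, and H2-Q6 by -0.63. The neutrophil markers are not used by that filter, and their part was not tested. H2-D1, at 1006, 1514, and 1186 CPM against 1393, 1363, and 1306 CPM, overlapped (-0.15 ± 0.15, adjusted p = 0.456), and B2m gave -0.19 ± 0.14. H2-K1 UMIs per H2-D1 UMI were 0.565 and 0.551 in rejecting kidney and 0.445 to 0.690 in rejecting spleen, below every accepted and naive library. Between rejecting kidney and rejecting spleen 0 members passed in either direction by edgeR or DESeq2 (1 in each direction at an unadjusted p under 0.05), where 10.8% of 8205 genes were higher and 5.34% lower, and Tap1 came nearest (0.78 ± 0.27, adjusted p = 0.0662).

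Values that bear on the rejecting comparisons lie beside these changes. Of the 10 groups by intron length, the longest had a median of 2.24 in rejecting against accepted kidney and 1.71 in spleen, the shortest -0.24 and -0.47, and the 3 shortest together, with 9 of the 10 members, -0.01 and -0.27. With that shift taken out, H2-K1 (-0.85 in kidney and -0.90 in spleen), H2-Q7 (-1.91 and -1.81), and H2-T23 (-0.82 and -0.44) remained lower and past the threshold in both tissues, and Tap1 became higher in kidney (0.55, adjusted p = 0.0227). B6 mice carry the H-2b haplotype and DBA/2J mice the H-2d haplotype, which differ in the sequence of class I genes, and reads of DBA/2J alleles were counted against a B6 reference. For the members graft outcome, strain, and mapping cannot be told apart. Changes over time are therefore described in the accepted libraries alone, all with B6 recipients. Their grafts were DBA/2J kidneys, so leukocytes of the donor can occur there too, and the part of such cells was not tested. Week and preparation cannot be told apart in a single tissue of these libraries either. Of 23 other pathway genes tested in kidney 9 were higher and 7 lower, and in spleen 9 and 8 of 22. Nlrc5 was higher by 2.69 (adjusted p = 2.12e-05) and 2.74 (adjusted p = 2.7e-08) in kidney and spleen, and Psmb8 was lower by -0.99 and -1.12. The intron length shift was not taken out for Nlrc5, which has 84424 bases of intron, and its part there was not tested. Interferon-response genes were higher for 11 of 25 and lower for 2 in kidney, and higher for 10 and lower for 3 in spleen. Of all genes 48.9% were higher and 10.5% lower in kidney, and 36.2% and 12.2% in spleen, so the counts of higher genes in both lists and of lower interferon-response genes lie near the background, whereas those of lower pathway genes lie above it.

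The CD45+ cells of naive spleen (47060 cells, 5 libraries) and rejecting kidney (11948 cells, 2 libraries) show which leukocytes carry the members. They were clustered without the H2 genes, clusters were named only from marker lists, 6.77% and 13.8% of cells stayed unnamed, and no test was made between cell types of the same library. In naive spleen H2-K1 was highest in NK-like cells, 2566 ± 74.7 CPM (SD, n = 5), then in plasmacytoid dendritic-like (2146 ± 154 CPM, n = 4, from 23 to 40 cells a library), CD4 T-like (1931 ± 94.4 CPM), and CD8 T-like cells (1786 ± 73.9 CPM). It was lower in macrophage or monocyte-like (1273 ± 219 CPM), B-like (1241 ± 73.2 CPM), and neutrophil-like cells (746 ± 256 CPM, n = 4). NK-like values did not overlap those of the other types, while B-like and macrophage or monocyte-like ones overlapped each other. H2-Q7 followed a steeper order, from 786 ± 43.4 CPM in NK-like, 778 ± 138 CPM in plasmacytoid dendritic-like, and 604 ± 38.7 CPM in CD8 T-like cells to 216 ± 26.6 CPM in B-like and 116 ± 70.4 CPM in macrophage or monocyte-like cells. B2m had another order, with 1678 ± 97.0 CPM in plasmacytoid dendritic-like, 1619 ± 148 CPM in macrophage or monocyte-like, 1281 ± 63.6 CPM in CD8 T-like, and 877 ± 32.3 CPM in B-like cells. H2-K1 UMIs per H2-D1 UMI were 1.89 ± 0.10 in CD4 T-like and 1.84 ± 0.09 in CD8 T-like cells, 0.91 ± 0.13 in macrophage or monocyte-like cells, and 0.54 ± 0.06 in neutrophil-like cells, so that this ratio also differed by cell type within naive spleen.

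In rejecting kidney B2m was higher in macrophage or monocyte-like than in CD8 T-like cells in both libraries (each pair of values gives the lower library first). Over all clusters of a type, it was at 2222 and 2293 CPM in macrophage or monocyte-like cells and at 928 and 1379 CPM in CD8 T-like cells. A cluster of 1101 macrophage or monocyte-like cells was at 1003 and 1132 CPM, between those CD8 T-like values. H2-K1 was at 1187 and 1219 CPM in macrophage or monocyte-like cells, 577 and 754 CPM in CD4 T-like cells, and 491 and 733 CPM in CD8 T-like cells. Plasmacytoid dendritic-like cells were at 1220.5 and 1483 CPM, from 26 and 53 cells. The lower of these values lay beside those of macrophage or monocyte-like cells, whose larger clusters ran from 907 to 1447 CPM in the same library. Tap1 was at 248 and 370.1 CPM in dendritic-like cells and at 225 and 285 CPM in macrophage or monocyte-like cells, above the 75.9 and 77.1 CPM of NK-like and the 116 and 124 CPM of CD8 T-like cells. H2-K1 UMIs per H2-D1 UMI had means from 0.55 in CD4 T-like to 0.84 in plasmacytoid dendritic-like cells over the named types. Macrophage or monocyte-like cells of naive spleen lay at 0.781 to 1.12 in this ratio. Between naive spleen and rejecting kidney the mean of H2-K1 was 1273 and 1203 CPM in macrophage or monocyte-like cells and 1786 and 612 CPM in CD8 T-like cells. These are other organs and, by the study's text, other strains, so the values are set side by side only. Cells with markers of more than 1 lineage made up 12.7% of rejecting kidney and 6.42% of naive spleen cells, and without them H2-K1 in macrophage or monocyte-like cells of naive spleen was at 1164 CPM, under the 1239 CPM of B-like cells, while NK-like cells stayed highest.

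**Figure D4:**
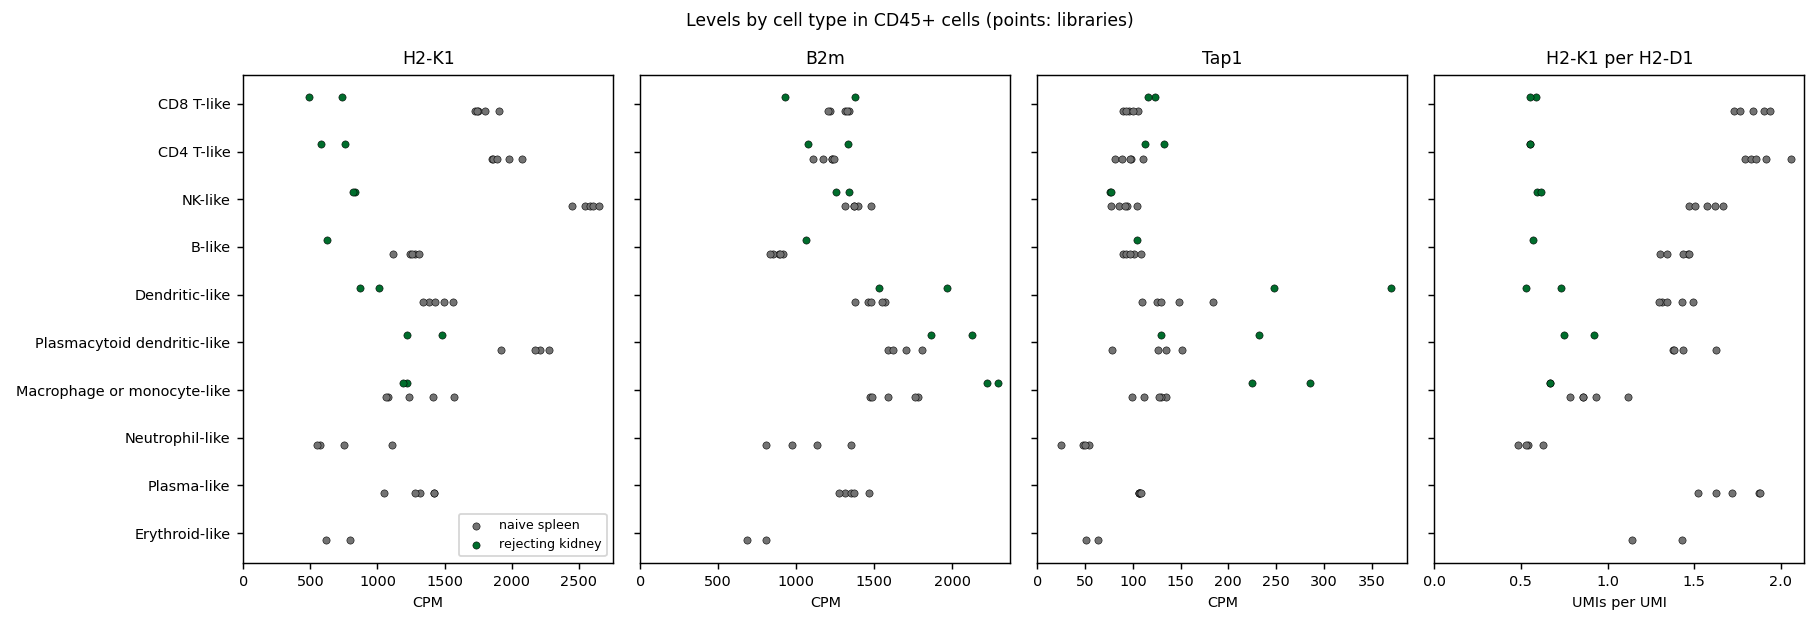
Levels of H2-K1, B2m, and Tap1 in CPM and H2-K1 UMIs per H2-D1 UMI are plotted along linear horizontal axes for each marker-named cell type (rows), with points for libraries of naive spleen and of rejecting kidney. The mean of H2-K1 is 2566 CPM in NK-like cells of naive spleen, and that of B2m is 2258 CPM in macrophage or monocyte-like cells of rejecting kidney.

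Over the 27 accepted and naive CD8+ T cell libraries, the mean profile of the 10 members (centred log2 of CPM plus 1) was most like that of H2-M3, a further nonclassical class I heavy chain, with a Pearson r of 0.940 among the 5155 genes that averaged 20 CPM or more. Smpdl3a (0.929), Itm2b (0.916), Cd82 (0.891), and Cdc42ep3 (0.890) followed. Of the members themselves H2-Q7 (0.93), B2m (0.92), H2-D1 (0.91), and H2-K1 (0.88) were nearest to their common mean, and H2-Q4 (0.62) and Tap1 (0.45) farthest, each being part of that mean. These correlations describe libraries that share weeks, tissues, and recipients.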

How the data were processed

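UMIs of the 9 CD8+ T cell matrices were summed per library tag. Groups were taken from the sample labels, and the CD45+ matrices of accepted mice were not used here. The authors aligned reads of the 3′ libraries with Cell Ranger to mm10 (versions are not given in the sources used here), removed cells by UMIs, genes, and mitochondrial content with limits not given there, annotated CD8+ T cells by hand, and deposited raw UMI counts per gene and cell without normalization. From these counts CPM were computed by plain library totals. Groups were compared by the quasi-likelihood test of edgeR 4.0.16 (run in R 4.3.3), fitted on all genes left by filterByExpr in the groups compared, and p-values were adjusted (Benjamini-Hochberg, threshold 0.05) over all of these genes. The edgeR tests of 2 groups were run on simulated counts as a check of the code. Since labels do not say that libraries were separate mice, p-values measure the spread between libraries. A share of all genes without overlap is given only for the grouping by week. Ratios and shares of cells were compared by exact two-sided permutation tests (scipy 1.17.1). Clusters of CD45+ cells came from scanpy 1.11.5 and leidenalg 0.10.2 (totals of 10000, 2000 variable genes, 30 components, 15 neighbors, resolution 0.8). No doublet caller was run, and cells with markers of more than 1 lineage were left out as a check.

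All 10 members are named in each main comparison. Of 24 other pathway genes and 25 interferon-response genes, those called in kidney at 3 weeks versus 1 week were named by size of change, at most 8 per list and with a mean of at least 20 CPM. The members and lists were chosen with earlier results of these data known. Alternatives were TMM factors, DESeq2 1.42.0, no filter on low counts, leaving out 4 gene classes (mitochondrial genes, genes of ribosomal proteins, those of immunoglobulins, and those of T cell receptors), cells with a CD8 UMI only, cells without a dividing marker, all 9 groups in 1 fit, an adjustment for intron length, each library left out in turn, and other thinning and Leiden resolutions (0.4 and 1.5). The comparisons of 3 weeks with naive spleen, the CD8-UMI interaction, H2-K1 per H2-D1, the replicate block, and the intron length medians were added after seeing the data. Coordinates are from GENCODE M21.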

Additional observations from a re-analysis of the deposited data

Results flagged for a closer look

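In a set of 36 values by gene and group tested for a library far from the others, 2 stood apart, both in the first spleen library of 3 weeks, and chance flags about 1 in 20 such groups. H2-T23 was at 83.7 CPM there and at 52.1 to 59.4 CPM in the other 4 libraries, and Tap2 was at 55.0 CPM against 33.0 to 38.4 CPM. The same-numbered kidney library of 3 weeks was also the highest of its group in H2-T23, at 125 CPM, but was not flagged. The change from 1 to 3 weeks differed between accepted kidney and spleen for 9 members by the interaction in edgeR. The kidney change minus the spleen change, on the log2 scale, was 0.89 for H2-K1, 0.65 for H2-D1, 1.16 for H2-Q4, 1.52 for H2-Q6, 0.83 for H2-Q7, 0.93 for H2-T23, 0.58 for B2m, 0.41 for Tap1, and 0.62 for Tap2. The H2-T23 value sets a smaller fall in kidney against a larger one in spleen.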

How the results depend on the processing

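Kidney and spleen library tags end in shared numbers, but no source used here says that a number marks a mouse. Deviations of same-numbered libraries from their group means, across genes, had r of 0.08 to 0.33 at 1 week, 0.05 to 0.48 at 3 weeks, 0.02 to 0.26 at 24 weeks, and -0.04 and -0.03 in the rejecting pairs, and not every library was most like its own number, so pairing was not assumed. With the number as a replicate block, added after seeing the data, 4 members rather than 1 were lower in kidney versus spleen at 1 week (H2-K1, H2-Q6, and H2-T23 were gained), and H2-T22 joined the interaction, 10 members in all. The block changed no other call of a member. Shares of all genes in the text are those of plain library totals, and none stands beside the counts of members under other settings. Plain library totals set the level of all genes, and TMM factors or DESeq2 moved members as one. With either, 4 members were lower in kidney at 3 weeks versus 1 week, 0 were higher and 8 lower in spleen, 9 were lower in rejecting kidney, and 10 in rejecting spleen, and kidney versus spleen at 1 week had 3 (TMM factors) or 2 (DESeq2) lower. In the 24-week kidney label against 3 weeks they gave 5 higher and 3 lower members, as H2-D1 turned to 0.29 and 0.28 and B2m to 0.29 and 0.28. Leaving out genes of mitochondria, ribosomal proteins, immunoglobulins, and T cell receptors gave 5 higher there (H2-D1 0.26, B2m 0.26), 1 lower in the 24-week spleen label against 3 weeks, 1 higher (Tap2, 0.26) and 5 lower between the 24-week labels, 4 higher and 1 lower in spleen at 1 week versus naive, 5 lower in kidney versus spleen at 1 week, and 7 lower in each rejecting comparison. Tap1 in rejecting kidney turned to -0.39 with TMM factors and -0.41 with DESeq2, and H2-T22 in kidney at 3 weeks versus naive to -0.016 with TMM factors and -0.14 without those genes.

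Cells with a CD8 UMI gave 2 higher in spleen at 3 weeks versus 1 week, and 4 higher and 1 lower in spleen at 1 week versus naive. Cells without a dividing marker gave 1 higher in kidney versus spleen at 1 week and 1 in rejecting kidney versus spleen. No filter gave 3 lower in kidney versus spleen at 1 week. All 9 groups in 1 fit gave 2 lower there, 4 higher in spleen at 1 week versus naive, 1 higher and 2 lower between the rejecting tissues, 1 higher in rejecting kidney, and 0 higher in spleen at 3 weeks versus naive, and the intron length adjustment gave 1 higher in rejecting kidney. Without thinning, the share of cells with a UMI at 3 weeks minus 1 week in kidney was 7.66 points for H2-Q4 (exact p = 0.179), 6.92 for H2-Q7 (exact p = 0.357), -17.8 for H2-T23 (exact p = 0.107), and 3.59 for Tap1 (exact p = 0.357).

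Leaving out each library in turn gave 0 to 1 higher in spleen at 3 weeks versus 1 week, 0 to 1 higher and 1 to 2 lower in kidney versus spleen at 1 week, 1 to 2 higher in the 24-week kidney label versus 3 weeks, 0 to 1 lower between the rejecting tissues, and 2 to 4 lower in spleen at 3 weeks versus naive. In rejecting versus accepted kidney 3 to 6 members were lower, against 4 with all libraries, and in rejecting versus accepted spleen 4 to 5. The 24-week kidney label versus 3 weeks had 5 to 7 lower, and spleen at 3 weeks versus 1 week 6 to 7. Against naive spleen, 7 to 9 were higher in kidney at 3 weeks and 7 to 8 in spleen at 1 week. Of single-gene changes under all alternatives, 1761 kept direction and side of the threshold, 95 gained and 63 lost the call, and 11 turned. The 2 rejecting kidney libraries and the 56-cell rejecting spleen library limit what those comparisons can show.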
